A study of Mus musculus with 10 samples.

Results

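The genes described here are 30 members of the p53 pathway: the gene of p53 itself, its main regulators and well-known transcriptional targets. They were chosen by name, and all 30 were found among the 38887 Ensembl gene identifiers of the deposited table through the GENCODE mouse annotation. All 30 passed the filter on low counts, so none was left out of the tests. Transcripts were measured by RNA sequencing in hematopoietic progenitor cells (HPC) of the marrow of mice carrying Lewis lung carcinoma, a transplantable mouse tumour. The mice of 5 libraries had received vehicle for 2 weeks, and those of the other 5 had received BMS-595 at 60 mg/kg. BMS-595 inhibits CK2, a serine and threonine kinase with many substrates. The groups are called vehicle and CK2i. Both groups carried the tumour, and no library of tumour-free mice is compared here. Vehicle libraries are titled untreated, and their treatment field names the vehicle. By its title the study concerned how CK2 inhibition affects myeloid cells and immunotherapy in tumour-bearing mice, and CK2i against vehicle compares the transcripts of progenitors from such mice. The labels give no sex, age, number of pooled mice or sorting markers, nor whether the libraries stand for different mice. The p-values therefore reflect only how much these 10 libraries vary, and some of that may be technical.

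p53, encoded by Trp53, is a transcription factor that halts the cell cycle, starts DNA repair or triggers cell death when DNA is damaged or growth signals are abnormal. Its protein is made constantly and destroyed through the ubiquitin ligase Mdm2, so p53 activity is set mostly by protein stability, and the transcripts of its targets are the usual readout. Several targets, Mdm2 and Ppm1d among them, feed back to switch p53 off. In bone marrow, p53 limits the expansion of stem and progenitor cells and drives their death after irradiation. CK2 can phosphorylate p53 and many other proteins, and the present data hold transcripts only.

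p53 binds a DNA decamer of 3 purines, a central core and 3 pyrimidines, and a full response element holds a pair of such decamers. The p53 consensus decamer was searched on both strands, where it reads alike, in windows from 250 bases before to 50 bases after the transcription starts given by RefSeq (GRCm38.p6). The table held 23 of the 30 members. A decamer was present in 12 of these 23 genes (52.2%), against 9.55% of all 27025 genes in the table. Per window the shares were 13 of 31 (41.9%) for the members and 8.36% of 32851 windows in all. The windows are shown because these members were listed by name as p53 targets, without a search for the decamer. Genes can become known as p53 targets through such sites, so the higher share is not independent of the list. A match is a description of the letters and not evidence of binding, and response elements of several members are known to lie in introns or further upstream. The windows of the 2 members that passed the test and hold a decamer, and of the 4 others with a decamer and the smallest p, are printed 5′ to 3′ along the gene's strand with the decamer in capitals.
Polk, chr13:96519138-96519437, minus strand, at the more downstream of 2 starts: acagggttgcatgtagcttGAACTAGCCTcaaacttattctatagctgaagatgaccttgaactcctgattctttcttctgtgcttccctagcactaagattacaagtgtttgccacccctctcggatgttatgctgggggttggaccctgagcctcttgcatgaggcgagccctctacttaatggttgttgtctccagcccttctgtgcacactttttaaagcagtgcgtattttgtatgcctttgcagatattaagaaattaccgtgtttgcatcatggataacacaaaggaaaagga
Gadd45a, chr6:67037358-67037657, minus strand: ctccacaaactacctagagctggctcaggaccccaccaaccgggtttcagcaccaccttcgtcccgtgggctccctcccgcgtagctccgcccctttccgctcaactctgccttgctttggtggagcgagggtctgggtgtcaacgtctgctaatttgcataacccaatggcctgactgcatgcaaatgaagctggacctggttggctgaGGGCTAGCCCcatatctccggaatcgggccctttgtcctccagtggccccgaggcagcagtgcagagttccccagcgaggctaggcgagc
Ccng1, chr11:40755237-40755536, minus strand: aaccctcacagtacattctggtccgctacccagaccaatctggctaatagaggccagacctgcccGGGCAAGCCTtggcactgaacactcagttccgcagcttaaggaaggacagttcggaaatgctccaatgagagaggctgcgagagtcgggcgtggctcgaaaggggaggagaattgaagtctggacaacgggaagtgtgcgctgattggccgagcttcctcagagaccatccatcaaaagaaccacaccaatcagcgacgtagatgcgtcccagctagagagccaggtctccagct
Cdkn1a, chr17:29090729-29091028, plus strand, at the more upstream of 2 starts: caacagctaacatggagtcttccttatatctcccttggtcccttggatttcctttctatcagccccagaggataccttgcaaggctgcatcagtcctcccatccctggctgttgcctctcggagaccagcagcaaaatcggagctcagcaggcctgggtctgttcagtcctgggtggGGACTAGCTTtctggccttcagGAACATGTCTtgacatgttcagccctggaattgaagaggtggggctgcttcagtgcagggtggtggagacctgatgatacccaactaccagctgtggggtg
Sesn1, chr10:41887189-41887488, plus strand, at the more downstream of 2 starts: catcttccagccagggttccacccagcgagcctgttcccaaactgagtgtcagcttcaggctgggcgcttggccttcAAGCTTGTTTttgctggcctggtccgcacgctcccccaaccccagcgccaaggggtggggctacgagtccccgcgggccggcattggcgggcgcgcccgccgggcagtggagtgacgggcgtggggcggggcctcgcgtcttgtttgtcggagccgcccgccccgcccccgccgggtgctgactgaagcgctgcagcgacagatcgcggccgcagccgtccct
Pml, chr9:58249737-58250036, minus strand: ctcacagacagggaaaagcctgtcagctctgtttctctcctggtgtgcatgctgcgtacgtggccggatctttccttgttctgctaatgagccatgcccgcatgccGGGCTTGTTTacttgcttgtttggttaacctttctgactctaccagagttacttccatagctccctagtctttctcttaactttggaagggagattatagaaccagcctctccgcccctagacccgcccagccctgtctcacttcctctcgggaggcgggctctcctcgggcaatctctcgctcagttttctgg

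The decamer began 40 bases before the start in Gadd45a, 185 in Ccng1, 144 in Pml, 173 in Sesn1 and 231 in Polk. Cdkn1a was the 1 member with 2 decamers in a window, at 73 and 51 bases before the start, which 0.359% of all windows showed. The other 6 members with a decamer are shown by the decamer in capitals with 10 bases on either side, because they include p53 itself and its feedback regulators.
Trp53, decamer at chr11:69580284-69580293: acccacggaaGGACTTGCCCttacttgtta
Mdm2, decamer at chr10:117710935-117710944: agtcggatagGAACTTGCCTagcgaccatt
Ppm1d, decamer at chr11:85311122-85311131: gggcgggggcGAGCTTGCTCttcttgactc
Ckap2, decamer at chr8:22186013-22186022: ctgtgtctgaAGACATGTCCtgacttgtca
Ei24, decamer at chr9:36797335-36797344: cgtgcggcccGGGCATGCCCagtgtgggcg
Aen, decamer at chr7:78895937-78895946: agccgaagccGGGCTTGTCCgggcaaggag

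In edgeR's quasi-likelihood test, 1 of the 30 members rose, 2 fell and 27 did not pass an adjusted p of 0.05. That is 10% of the members, where 13.2% of all 14346 genes tested passed, 6.43% higher and 6.76% lower in CK2i. An unadjusted p under 0.05 was reached by 8 members (34.6% of all genes). The members' median log2 difference was -0.018, with 14 above 0 and 16 below, and the median over all genes was -0.0006. The median size of the log2 difference, sign ignored, was 0.15 for the members and 0.14 for all genes. The gene that rose was Polk, a DNA polymerase that copies past damaged bases. Those that fell were Trp53inp1, a p53-induced regulator of cell death and autophagy, and Gadd45a, a growth arrest and DNA damage gene. For 24 of the 30 members the 95% interval of the difference lay within 1.5-fold in either direction, and for 29 within 2-fold. The groups did not overlap for 2 members, Polk with CK2i higher and Trp53inp1 with CK2i lower (10.9% of all genes tested did not overlap, 5.18% with CK2i higher and 5.76% lower). In bulk RNA, a smaller number of cells of a type and less RNA per cell cannot be told apart.

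**Figure D1:**
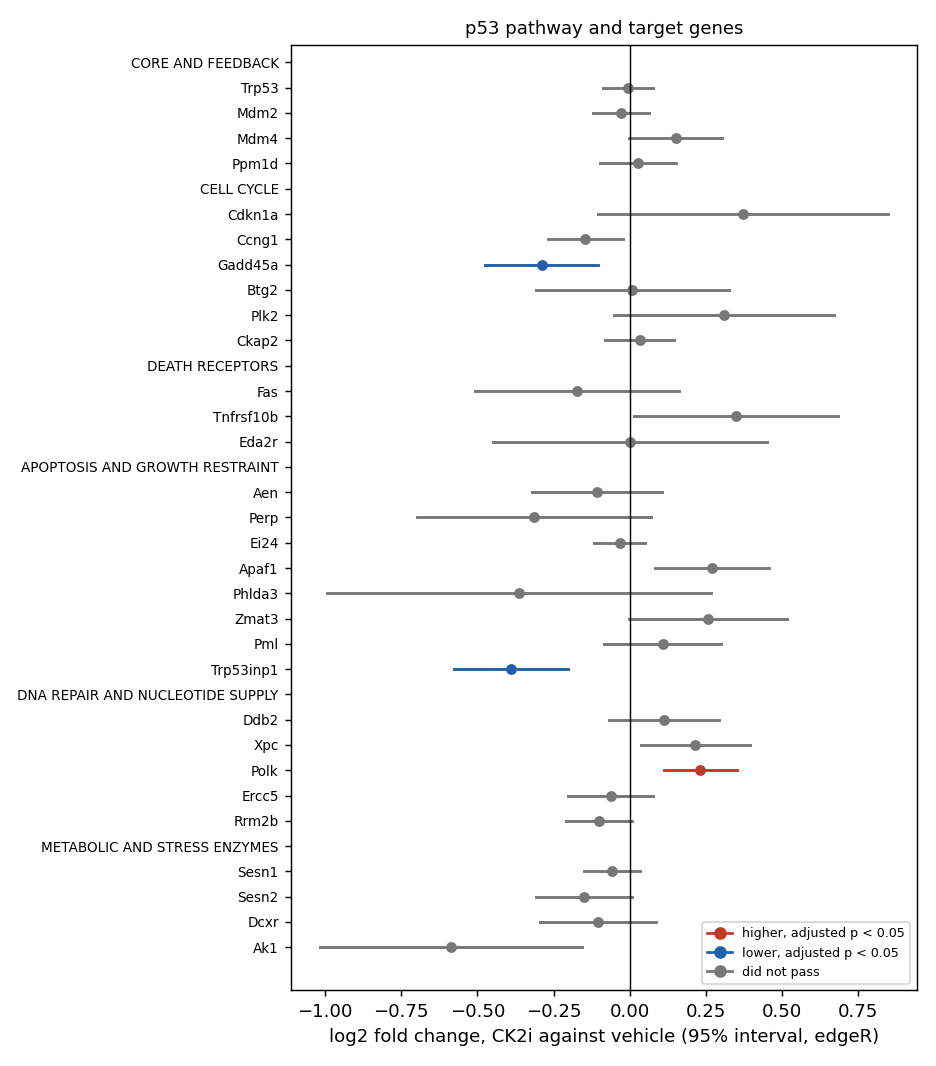
Log2 fold change of CK2i against vehicle for the 30 members by role, with 95% intervals from edgeR (n = 5 libraries per group). Polk, in red, was higher and Gadd45a and Trp53inp1, in blue, were lower at an adjusted p under 0.05; Trp53 and Mdm2 had short intervals around 0, and Phlda3, Cdkn1a and Eda2r had the widest.

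The 3 calls depended on which libraries were in the fit. The count of members called was 1 without vehicle 1 (3.16% of all genes passed), 0 without vehicle 4 (3.66%) and 1 without vehicle 5 (3.78%). It was 1 without CK2i 2 (4.28%) and 0 without CK2i 5 (3.09%), and 4 without vehicle 2 (11.1%) or CK2i 3 (22.1%). CK2i 2 and CK2i 5 stood apart from the other libraries, with scores of 43.3 and 43.7 on the first principal component of all genes. Scores of CK2i 1, 3 and 4 reached from -4.10 to 12.5, and no vehicle library scored above -9.37. Without both of them no member passed with edgeR (5 had an unadjusted p under 0.05), and 1.2% of all genes did. DESeq2, with all 10 libraries, called 5 members, Apaf1 and Polk higher and Ak1, Gadd45a and Trp53inp1 lower (21.9% of all genes). With edgeR, no member passed with the replicate number as a block (8 unadjusted, 7.94% of all genes called) or with 1 surrogate variable (3 unadjusted, 0.509% of all genes called).

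Library totals of estimated counts lay from 37569160 to 43636152 in vehicle and from 34127674 to 40811539 in CK2i libraries. Of 10 progenitor markers, all detected, 2 fell, 8 did not pass, and 4 had log2 differences above 0 and 6 below. Their sums ran from 1199 to 1425 CPM in vehicle and 1216 to 1295 in CK2i libraries. Kit, the stem cell factor receptor, fell from 268.9 ± 16.1 to 225.3 ± 19.2 CPM (edgeR adjusted p = 0.0302, passing in 6 of 10 fits that each lacked 1 library). Cd34 was at 179.1 ± 29.4 and 196.8 ± 14.8 CPM, Myb at 542.8 ± 37.8 and 520.2 ± 15.6 CPM, and Flt3 at 64.4 ± 10.8 and 82.6 ± 10.3 CPM, and these 3 did not pass. Marker lists of other marrow cells differed between the groups to varying degrees, and only the B and plasma cell sums did not overlap. Summed over 10 genes each, megakaryocyte markers ran from 2895 to 4468 CPM in vehicle and 1700.0 to 3539 in CK2i libraries, monocyte markers from 392.4 to 673.4 and 572.0 to 1134, and erythroid markers from 406.8 to 646.2 and 572.0 to 829.3. B and plasma cell markers ran from 666.8 to 867.8 and 429.4 to 638.6 CPM. Jchain, the joining chain of secreted antibodies, made up most of that sum and fell from 592.3 ± 73.2 to 307.8 ± 66.2 CPM, and of the 6 genes of the list that were tested 3 had differences above 0 and 3 below. The 12 late neutrophil markers summed to 37.1 to 77.7 and 53.5 to 144.3 CPM. Of these lists, 5 megakaryocyte and 1 B and plasma cell gene passed downward, and 4 monocyte, 6 erythroid and 5 late neutrophil genes passed upward. All 10 megakaryocyte genes had log2 differences below 0. Differences were above 0 for 9 monocyte, 8 erythroid and 10 late neutrophil genes, and below 0 for 1, 2 and 2. The erythroid genes below 0 were Klf1 (-0.23) and Epor (-0.28), which did not pass. Without CK2i 2 and 5 the genes still called were 2 erythroid and 1 B and plasma cell gene (1.2% of all genes). With 1 library left out, the counts ran from 0 to 4 for progenitor, 0 to 9 for megakaryocyte, 1 to 6 for monocyte, 4 to 7 for erythroid, 0 to 5 for late neutrophil and 1 to 3 for B and plasma cell genes. In these fits 3.09% to 22.1% of all genes passed. T and NK markers summed to at most 7.46 CPM in any library, with 0 genes called by edgeR or DESeq2 (1 at an unadjusted p under 0.05). The 10 stromal and endothelial markers summed to 211.1 to 287.4 CPM in vehicle and 218.5 to 248.8 in CK2i libraries. Of them 1 passed downward with edgeR, and 3 had log2 differences above 0 and 7 below. No listed marker was at 0 in all libraries. The part of these cell types in the members' values was not tested.

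The 4 genes at the core of the pathway did not pass the test with edgeR or DESeq2, and none had an unadjusted p under 0.05. Trp53 (ENSMUSG00000059552; chromosome 11, 69580359 to 69591873, GRCm38) stood at 109.5, 104.5, 104.4, 106.7 and 109.3 CPM in vehicle libraries 1 to 5. The values for CK2i 1 to 5 were 108.6, 112.0, 107.6, 101.7 and 102.5 CPM. CPM are counts scaled to library size with TMM factors. The groups overlapped, with 1 CK2i library above and 2 below the range of vehicle. The log2 difference was -0.0053 ± 0.037 (SE, 95% interval -0.086 to 0.076, edgeR adjusted p = 0.933), which as a percent change of the Trp53 transcript is an interval from -5.82% to 5.40%. Its sign turned without vehicle 1, vehicle 5, CK2i 4 or CK2i 5, where the differences were 0.0030, 0.0022, 0.011 and 0.0083.

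Mdm2, the ubiquitin ligase that destroys p53 and is itself a p53 target (ENSMUSG00000020184; chromosome 10, 117688875 to 117710758), also varied little between libraries. It stood at 63.2, 59.5, 65.1, 62.1 and 60.4 CPM in vehicle libraries 1 to 5. The values for CK2i 1 to 5 were 58.7, 60.5, 65.2, 58.3 and 61.2 CPM. CK2i 3 held the highest and CK2i 4 the lowest of the 10 values, and the groups overlapped. The log2 difference was -0.030 ± 0.042 (interval -0.12 to 0.062, adjusted p = 0.638). Ppm1d encodes the phosphatase Wip1, which removes activating phosphates from p53 and its kinases. It was at 29.6 ± 1.09 and 30.2 ± 2.32 CPM (SD, n = 5 per group; log2 0.028 ± 0.057, edgeR adjusted p = 0.75). The sign of that difference turned without CK2i 4 (-0.018).

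Mdm4, the partner of Mdm2 that holds p53 inactive, stood at 77.2, 75.96, 78.3, 77.3 and 84.5 CPM in vehicle libraries 1 to 5. The CK2i libraries held 82.2, 101.3, 77.02, 83.98 and 92.04 CPM. Only CK2i 2 and CK2i 5 lay above all vehicle libraries. The log2 difference of 0.15 ± 0.069 did not pass (edgeR adjusted p = 0.146).

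Among the targets with a role in the cell cycle, 1 of 6 passed. Cdkn1a, the gene of the cyclin-dependent kinase inhibitor p21 and the most used readout of p53 (ENSMUSG00000023067; chromosome 17, 29090976 to 29100727), was low in all libraries. It stood at 2.52, 2.58, 2.47, 2.51 and 1.54 CPM in vehicle libraries 1 to 5. CK2i 1 to 5 held 3.42, 4.34, 2.90, 2.09 and 2.30 CPM. CK2i 1, 2 and 3 lay above all vehicle libraries, CK2i 4 and 5 lay within their range, and vehicle 5 was far below its group. The log2 difference of 0.37 ± 0.22 did not pass (95% interval -0.10 to 0.85, edgeR adjusted p = 0.244). As a percent change that interval reaches from -6.96% to 79.95%, so these libraries do not bound Cdkn1a as closely as Trp53 or Mdm2. The 2 decamers of the Cdkn1a window lie at the upstream start shown above. Up to 261 bases of a Cdkn1a exon overlap the annotated transcript AC167363.2 on the opposite strand, for which no count was matched, so the Cdkn1a values may depend on the strand setting of the counting.

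Gadd45a, which binds PCNA and stress kinases (ENSMUSG00000036390; chromosome 6, 67035096 to 67037457), stood at 27.1, 24.3, 28.4, 27.8 and 32.01 CPM in vehicle libraries 1 to 5. The CK2i libraries 1 to 5 held 26.00, 21.4, 22.7, 24.1 and 20.1 CPM. The lowest values were those of CK2i 5 and CK2i 2, 4 of the 5 CK2i libraries lay below all vehicle libraries, and CK2i 1 lay within their range. Gadd45a fell by 0.29 ± 0.085 on the log2 scale (edgeR adjusted p = 0.0475). The call was kept without vehicle 2 (0.0338) or CK2i 1 (0.0359). It was lost without vehicle 1 (adjusted p = 0.0849), 3 (0.0811), 4 (0.0853) or 5 (0.1002) and without CK2i 2 (0.105), 3 (0.0515), 4 (0.0542) or 5 (0.106), and without CK2i 2 and 5 together it was 0.234. An exon of Gadd45a overlaps E230016M11Rik on the opposite strand, a transcript with a mean of 77.7 counts where Gadd45a has 993.9, and the strand setting of the counting is not given in the sources used here.

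Ccng1, cyclin G1, an early p53 target that feeds back on Mdm2, was the third highest member per transcript length. It stood at 138.1, 122.2, 118.6, 122.3 and 127.3 CPM in vehicle libraries 1 to 5. With CK2i the 5 values, in the same order, were 113.1, 101.7, 121.5, 119.1 and 112.8 CPM. CK2i 1, 2 and 5 lay below all vehicle libraries, and the groups overlapped. The log2 difference of -0.15 ± 0.056 did not pass (edgeR adjusted p = 0.0968). Plk2, a polo-like kinase induced by p53, was at 2.91 ± 0.49 and 3.60 ± 0.736 CPM (log2 0.31 ± 0.16, adjusted p = 0.204). Btg2, an antiproliferative gene, was at 78.1 ± 17.5 and 78.6 ± 9.93 CPM (log2 0.0084 ± 0.14, adjusted p = 0.975). Its difference turned negative without vehicle 1 (-0.060), vehicle 2 (-0.081) or CK2i 3 (-0.070). Ckap2, a spindle protein, was at 58.5 ± 1.31 and 59.8 ± 4.51 CPM (log2 0.032 ± 0.051, adjusted p = 0.679), and its difference was -0.0046 without CK2i 4.

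**Figure D2:**
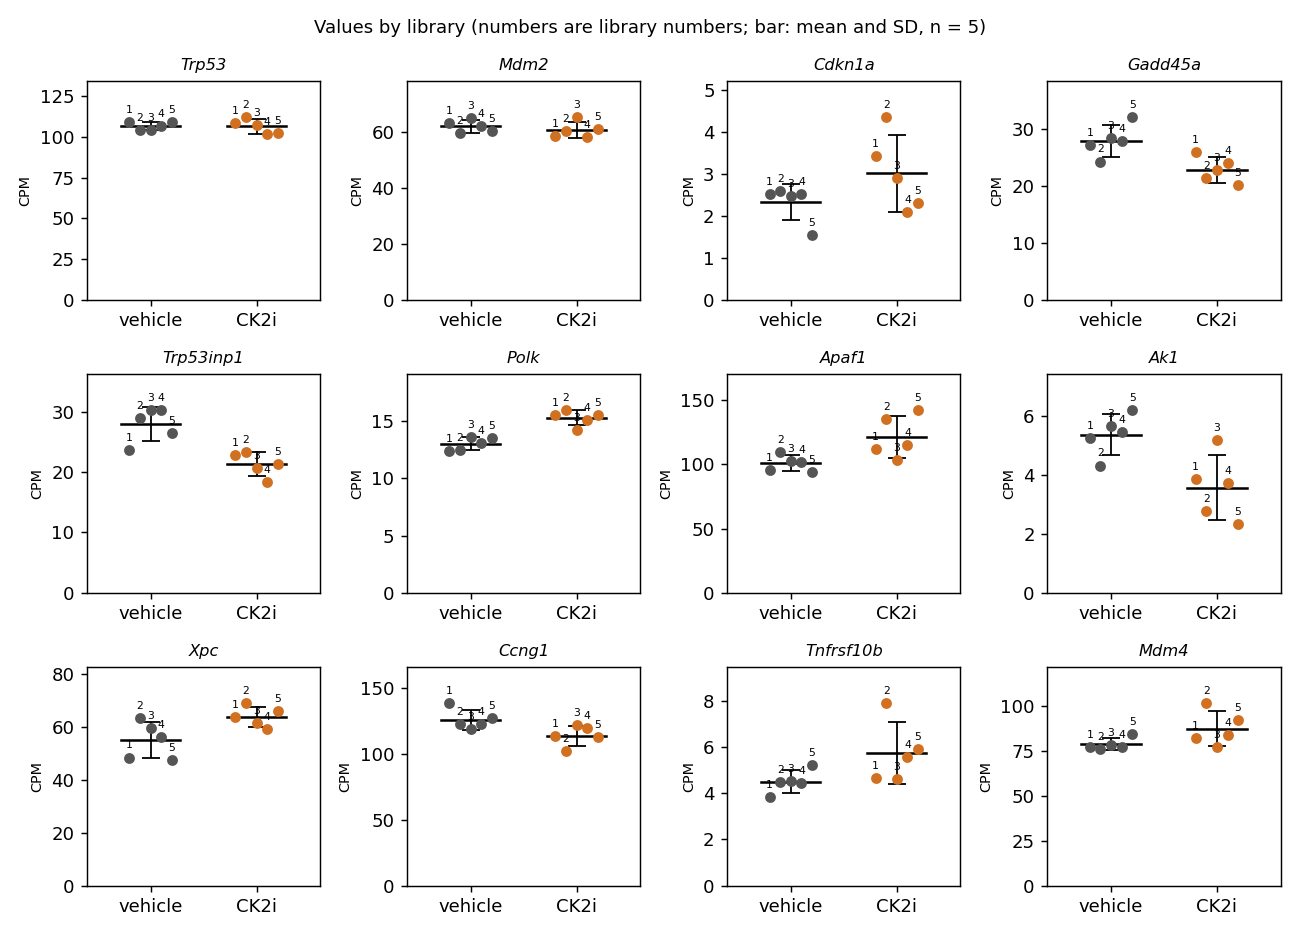
CPM (counts scaled to library size, TMM) of 12 members in the 5 vehicle and 5 CK2i libraries, each point marked with its library number, with the mean and SD of each group. Only for Trp53inp1 and Polk do the groups not overlap. The points of Trp53 and Mdm2 lie close together in both groups. CK2i 2 is the highest point for Trp53, Cdkn1a, Polk, Xpc, Tnfrsf10b and Mdm4.

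The death receptors of the list were scarce in these cells and 0 of 3 passed with edgeR or DESeq2 (1 had an unadjusted p under 0.05). Tnfrsf10b, the mouse receptor of the death ligand TRAIL, stood at 3.82, 4.50, 4.54, 4.44 and 5.20 CPM in vehicle libraries 1 to 5. In CK2i libraries 1 to 5 it stood at 4.68, 7.89, 4.61, 5.55 and 5.93 CPM. CK2i 2 was far above the rest, CK2i 4 and 5 also lay above all vehicle libraries, and CK2i 1 and 3 lay within their range. The log2 difference was 0.35 ± 0.15 (edgeR adjusted p = 0.131). Fas, the CD95 death receptor, was at 1.398 ± 0.135 and 1.24 ± 0.217 CPM (log2 -0.17 ± 0.15, adjusted p = 0.442). Eda2r, a receptor of ectodysplasin that p53 induces, was the lowest member per transcript length in both groups. It was at 0.984 ± 0.249 and 0.986 ± 0.142 CPM (log2 0.0010 ± 0.20, adjusted p = 0.999), with as few as 22 counts in a library. Its sign turned without vehicle 2 (-0.14), vehicle 3 (-0.015), CK2i 1 (-0.062) or CK2i 3 (-0.045).

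Of 8 targets that act in apoptosis or restrain growth, 1 fell and 7 did not pass. Trp53inp1 (ENSMUSG00000028211; chromosome 4, 11156431 to 11174379) had the smallest p of the 30. It stood at 23.7, 29.1, 30.2, 30.3 and 26.6 CPM in vehicle libraries 1 to 5. The CK2i libraries 1 to 5 held 22.9, 23.4, 20.8, 18.3 and 21.3 CPM. Each CK2i library was lower than the lowest vehicle library, vehicle 1 was the vehicle library closest to them, and CK2i 4 was the lowest. Trp53inp1 fell by 0.39 ± 0.085 on the log2 scale (interval -0.58 to -0.20, edgeR adjusted p = 0.0224). With 1 library removed it passed in 8 of 10 fits, and it missed the threshold without vehicle 4 or CK2i 5 (0.0546 each). CK2i 2 and 5, the libraries that stood apart, did not hold its lowest values. Without both of them the difference was -0.44, as large as with them, with an adjusted p of 0.0650. Trp53inp1 has no entry in the promoter table.

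Apaf1, the scaffold of the apoptosome that activates caspase-9, came next in this group by p. It stood at 95.6, 109.8, 103.0, 101.7 and 94.4 CPM in vehicle libraries 1 to 5. The values for CK2i 1 to 5 were 112.3, 135.5, 103.5, 114.9 and 142.1 CPM. CK2i 2 and CK2i 5 were the highest, CK2i 1 and 4 also lay above all vehicle libraries, and CK2i 3 lay within their range. The log2 difference of 0.27 ± 0.085 missed the threshold (edgeR adjusted p = 0.0567). It passed with DESeq2 (adjusted p = 0.0218) and, with edgeR, without CK2i 3 (0.0211).

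The other 6 members of this group did not pass. Zmat3, an RNA-binding splicing regulator, was at 4.84 ± 0.558 and 5.78 ± 0.812 CPM (log2 0.26, edgeR adjusted p = 0.149). Perp, a desmosome protein with a role in apoptosis, was at 1.21 ± 0.263 and 0.975 ± 0.078 CPM (log2 -0.31, adjusted p = 0.224). Pml, which organises nuclear bodies where p53 is modified, was at 83.3 ± 7.13 and 89.8 ± 11.7 CPM (log2 0.11, adjusted p = 0.403), and its difference was -0.0015 without CK2i 2 and 5. Aen, a nuclease induced by p53, was at 79.8 ± 8.44 and 74.1 ± 10.3 CPM (log2 -0.11, adjusted p = 0.45). Phlda3, an inhibitor of Akt, varied most among libraries, at 2.73 ± 0.908 and 2.13 ± 0.778 CPM (log2 -0.36, adjusted p = 0.388), with 4.07 CPM in vehicle 1 and 1.28 and 1.45 CPM in CK2i 2 and 5. With 1 surrogate variable the Phlda3 difference was 0.22. Ei24, an endoplasmic reticulum protein, was at 54.2 ± 2.24 and 52.98 ± 1.05 CPM (log2 -0.033, adjusted p = 0.564), with the interval -0.12 to 0.051.

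Among 5 genes of DNA repair and nucleotide supply, 1 rose and 4 did not pass. Polk (ENSMUSG00000021668; chromosome 13, 96480690 to 96542579) stood at 12.4, 12.5, 13.6, 13.1 and 13.5 CPM in vehicle libraries 1 to 5. The CK2i libraries 1 to 5 held 15.6, 15.9, 14.3, 15.1 and 15.6 CPM. Each CK2i library was higher than the highest vehicle library, and the spread within either group was small, with a standard deviation of 4.42% of the mean in vehicle and 4.25% in CK2i. Polk rose by 0.23 ± 0.055 on the log2 scale, a rise of 17.4% (interval 7.98% to 27.6%, edgeR adjusted p = 0.0272). With 1 library removed it passed in 5 of 10 fits. The adjusted p was 0.0676 without vehicle 1, 0.0598 without vehicle 4, 0.0506 without vehicle 5, 0.0612 without CK2i 2 and 0.0652 without CK2i 5. Without CK2i 2 and 5 together the difference was 0.20, with an adjusted p of 0.132. The decamer of its window, shown above, lies at an internal start of the gene.

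Xpc, the damage sensor of nucleotide excision repair, stood at 48.5, 63.3, 59.8, 56.2 and 47.5 CPM in vehicle libraries 1 to 5. CK2i 1 to 5 held 63.7, 68.9, 61.4, 59.4 and 65.9 CPM. CK2i 1, 2 and 5 lay above all vehicle libraries, and vehicle 1 and 5 were the lowest of the 10. The log2 difference of 0.21 ± 0.081 did not pass (edgeR adjusted p = 0.0914), except without vehicle 2 (0.0485). Ddb2, the other sensor of that pathway, was at 10.2 ± 0.881 and 11.1 ± 0.944 CPM (log2 0.11, adjusted p = 0.349). Its exons overlap those of Acp2 on the opposite strand, a gene with more counts (a mean of 1123.6 against 414.5), so its value may depend on whether strand was used. Ercc5, the endonuclease XPG, was at 23.6 ± 1.29 and 22.6 ± 1.77 CPM (log2 -0.063, adjusted p = 0.507). Rrm2b, the p53-inducible subunit of ribonucleotide reductase, was at 18.3 ± 0.845 and 17.1 ± 0.482 CPM (log2 -0.10, adjusted p = 0.172).

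The 4 metabolic and stress enzymes all had differences below 0, and 0 of 4 passed with edgeR (1 had an unadjusted p under 0.05, and DESeq2 called 1). Ak1, adenylate kinase 1, had the largest difference of all members. It stood at 5.23, 4.31, 5.66, 5.44 and 6.18 CPM in vehicle libraries 1 to 5. With CK2i the 5 values, in the same order, were 3.85, 2.76, 5.16, 3.73 and 2.33 CPM. CK2i 5 and 2 were the lowest, CK2i 1 and 4 also lay below all vehicle libraries, and CK2i 3 lay within their range. The log2 difference of -0.59 ± 0.20 missed the threshold (edgeR adjusted p = 0.0653). It passed with DESeq2 (0.0230) and, with edgeR, without CK2i 3 (0.0175). Sesn1 and Sesn2 encode sestrins, which restrain the growth kinase mTORC1. Sesn1 was at 39.00 ± 1.76 and 37.5 ± 1.01 CPM (log2 -0.058, adjusted p = 0.353). Sesn2 was at 14.9 ± 1.14 and 13.4 ± 1.001 CPM (log2 -0.15, adjusted p = 0.165). Dcxr, a carbonyl reductase, was at 8.26 ± 0.446 and 7.69 ± 0.819 CPM (log2 -0.10, adjusted p = 0.414).

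Levels can be compared between genes only per transcript length, for which the deposited FPKM values serve. In vehicle libraries Trp53 was the highest member at 64.6 ± 1.39 FPKM (SD, n = 5). Aen, Ccng1, Mdm2, Gadd45a, Btg2, Mdm4 and Ei24 followed between 38.2 and 29.5 FPKM. Aen and Ccng1, and all neighbours from Mdm2 to Ei24, differed by less than their standard deviations. Near the lower end, Cdkn1a was at 1.46 ± 0.296 FPKM, Tnfrsf10b at 1.498 ± 0.167, Fas at 1.11 ± 0.097, Plk2 at 1.10 ± 0.19, Zmat3 at 0.728 ± 0.106, Perp at 0.696 ± 0.15 and Eda2r at 0.318 ± 0.097 FPKM. In total 11 of the 30 members were below 5 FPKM in vehicle libraries. In CK2i libraries Trp53 stood at 64.1 ± 2.52 and Cdkn1a at 2.05 ± 0.539 FPKM.

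**Figure D3:**
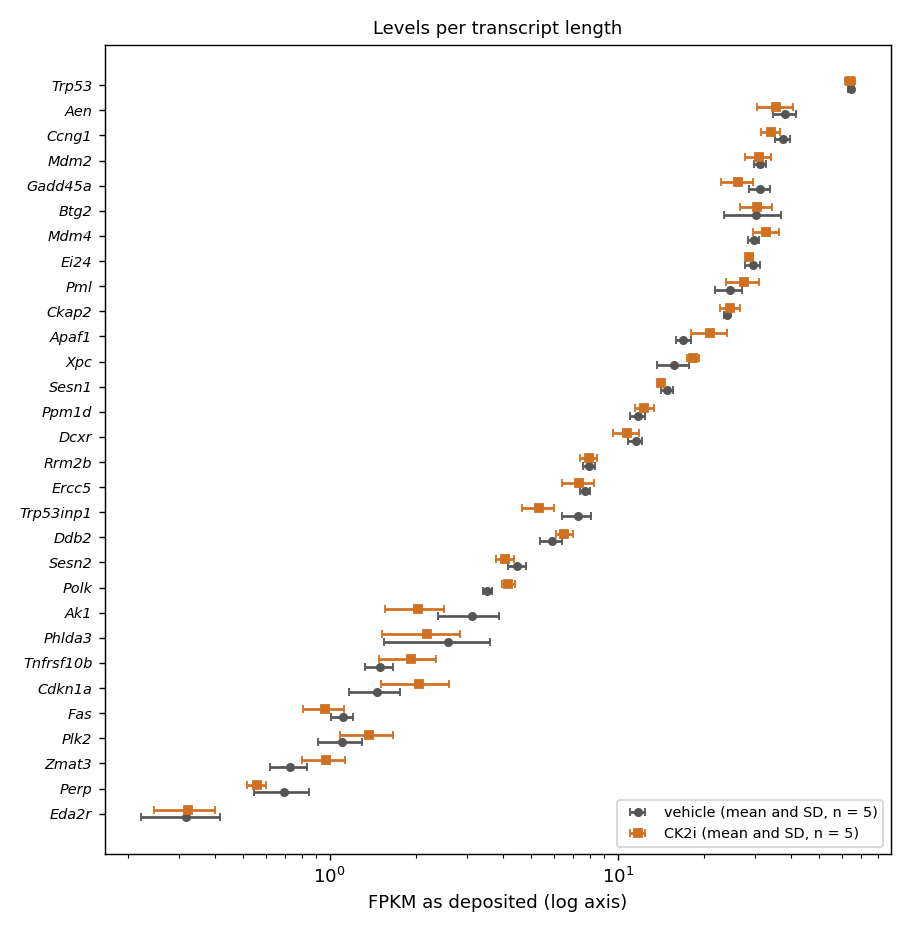
Deposited FPKM of the 30 members on a log axis, as mean and SD over 5 vehicle (circles) and 5 CK2i (squares) libraries, ordered by the vehicle mean. Trp53 is the highest at 64.6 FPKM in vehicle and Eda2r the lowest at 0.318, with Cdkn1a near the lower end at 1.46.

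The libraries that stood apart held high values of some members and low values of others. CK2i 2 and CK2i 5 were the 2 highest CK2i libraries for 7 members (Mdm4, Tnfrsf10b, Apaf1, Pml, Xpc, Polk and Sesn1) and the 2 lowest for 7 others (Ccng1, Gadd45a, Eda2r, Aen, Phlda3, Ddb2 and Ak1). That is 46.7% of the members, where the same held for 47.4% of all genes tested. One or the other of these libraries held the highest or the lowest of the 10 values for 16 members (53.3%, against 69.0% of all genes). By promoter letters, 1 of the 12 members with a decamer rose and 1 fell, and 0 of the 11 with a window but no decamer passed with edgeR. Of the 7 without a window, 1 fell. Over all genes tested 13.2% passed, 6.43% higher and 6.76% lower in CK2i. The members' median log2 differences were -0.018 with a decamer, -0.063 with a window but no decamer and 0.11 without a window. The part of the decamer in these counts was not tested.

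**Figure D4:**
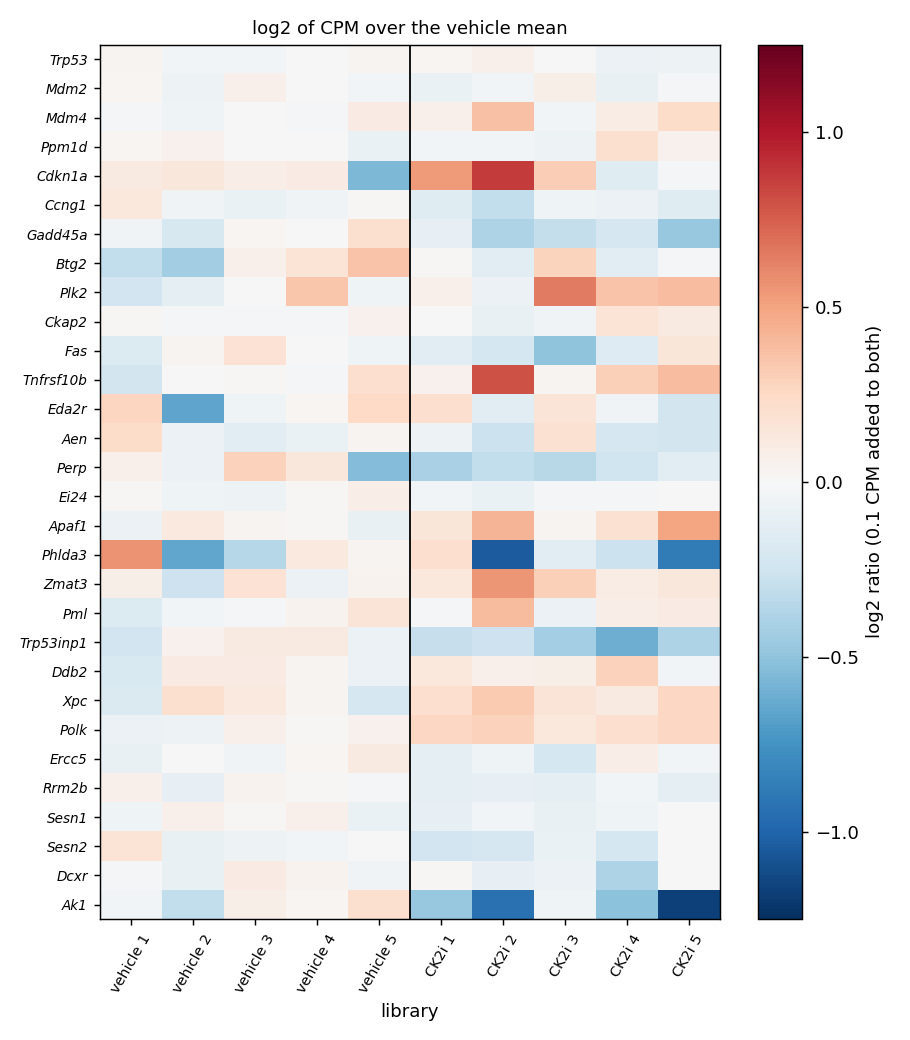
Log2 of the CPM in each library over the mean of the vehicle libraries (0.1 CPM added to both), for the 30 members in rows and 10 libraries in columns, vehicle left and CK2i right of the line. Polk is above and Trp53inp1 below the vehicle mean in all 5 CK2i columns, and CK2i 2 and 5 hold the lowest values of Ak1 and Phlda3.

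A list of 18 regulators and relatives of p53, among them kinases, cofactors and ligases, was also followed, and 15 were tested. Rchy1, a ubiquitin ligase of p53 known as Pirh2, fell from 35.1 ± 0.913 to 29.1 ± 2.82 CPM (log2 -0.27 ± 0.064, edgeR adjusted p = 0.0261). It was the 1 gene of the 15 that passed (6.67%, against 13.2% of all genes), and 9 of 15 had an unadjusted p under 0.05, where 34.6% of all genes did. The median log2 difference was -0.013. The count was 0 without vehicle 1, vehicle 4, vehicle 5 or CK2i 5 (Rchy1 at 0.0563, 0.0607, 0.0550 and 0.0655). In these fits 3.16%, 3.66%, 3.78% and 3.09% of all genes passed. The count was 2 without CK2i 1 (11.9% of all genes) and 7 without CK2i 3 (22.1%). DESeq2 called 7 (21.9% of all genes), and without CK2i 2 and 5 together edgeR called 0 (1.2% of all genes; 5 had an unadjusted p under 0.05). The damage kinase genes Atm and Atr did not pass, at log2 differences of 0.19 (adjusted p = 0.0665) and -0.076 (0.268), nor did the checkpoint kinase genes Chek1 (0.886) and Chek2 (0.339). Of the 15 tested genes, 7 had log2 differences above 0 and 8 below. They ran from -0.34 for Ppp1r13b (edgeR adjusted p = 0.0650) to 0.61 for Ep300 (0.0511), neither of which passed. Cdkn2a, Trp63 and Trp73 were too low to be tested.

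A list of 37 further p53 targets, 34 of them tested, held 2 genes that rose and 3 that fell (14.7%, against 13.2% of all genes), with a median log2 difference of 0.071. Pmaip1, the gene of the BH3-only death protein NOXA, stood at 5.76, 5.94, 7.45, 6.88 and 5.61 CPM in vehicle libraries 1 to 5. The values for CK2i 1 to 5 were 12.1, 15.5, 12.2, 11.2 and 13.4 CPM. The groups were far apart, and the rise of 1.02 ± 0.11 (edgeR adjusted p = 0.00203) was kept in all 10 fits with 1 library removed. Bbc3, the gene of the related death protein PUMA, was at 9.15 ± 1.26 and 7.07 ± 1.84 CPM (log2 -0.37, adjusted p = 0.146, 0.0498 without CK2i 3), and Bax, a pore-forming death protein, was at 39.4 ± 1.59 and 36.7 ± 1.80 CPM (log2 -0.10, adjusted p = 0.145). Neither passed in the full fit.

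Tigar, a phosphatase that lowers glycolytic flux, rose from 7.75 ± 1.504 to 12.6 ± 1.73 CPM (log2 0.70 ± 0.14, edgeR adjusted p = 0.0184). Foxo3, a forkhead transcription factor, fell by 0.20 ± 0.041 log2 (adjusted p = 0.0185). Tigar and Foxo3 passed in all 10 fits without 1 library. Thbs1, thrombospondin 1, which platelets store in their granules, fell from 1408 ± 233.1 to 806.6 ± 238.5 CPM (edgeR adjusted p = 0.027). That call was lost without vehicle 1, 3 or 5 or CK2i 2 or 5, at up to 0.0675. The megakaryocyte markers, given above, were lower in CK2i as well, and their part in Thbs1 was not tested. Siah1a, a ubiquitin ligase, fell by 0.19 ± 0.057 log2 (adjusted p = 0.0498) and passed in none of the 10 fits (0.0532 to 0.113). Reads of Siah1a may be shared with its close copy Siah1b. The count of 5 was 3 without vehicle 1 (3.16% of all genes passed), vehicle 3 (5.25%), CK2i 2 (4.28%) or CK2i 5 (3.09%). It was 1, Pmaip1, without CK2i 2 and 5 together (1.2% of all genes).

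p21 acts on the cell cycle by letting the DREAM complex silence genes of S phase and mitosis. Of 29 such genes, all tested, 5 rose and 1 fell (20.7%, against 13.2% of all genes). The log2 differences were small and mostly of one sign, with 27 of 29 above 0 and a median of 0.093, where 49.8% of all genes were above 0. Mybl2, a transcription factor of cycling cells, rose by 0.26 ± 0.049 (edgeR adjusted p = 0.0159), Rrm2, a subunit of ribonucleotide reductase, by 0.34 ± 0.084 (0.0296), and the mitotic kinase gene Aurka by 0.15 ± 0.044 (0.0466). Mki67, the proliferation marker, rose by 0.40 ± 0.12 (adjusted p = 0.0492) and the cyclin gene Ccne2 by 0.23 ± 0.069 (0.04995). Cenpa, the histone variant of centromeres, fell by 0.25 ± 0.041 (adjusted p = 0.0104).

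Of these 6 cell cycle genes, Mybl2 and Cenpa passed in all 10 fits without 1 library, Rrm2 in 5, and Aurka, Mki67 and Ccne2 in 2 each. The count was 2 without vehicle 1, 3 or 4 (3.16%, 5.25% and 3.66% of all genes passed) or without CK2i 2 or 5 (4.28% and 3.09%). It was 3 without vehicle 5 (3.78%) or CK2i 4 (12.0%) and 11 without CK2i 3 (22.1% of all genes). Without CK2i 2 and 5 together it was 1, Cenpa (1.2% of all genes). Erythroid and monocyte genes passed upward as well, as given above, and their part in these cell cycle genes was not tested. Mki67 was at 1950.0 and 1848 CPM in CK2i 2 and 5, 1303, 1210.0 and 1639 CPM in CK2i 1, 3 and 4, and 1128 to 1262 CPM in vehicle libraries.

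**Figure D5:**
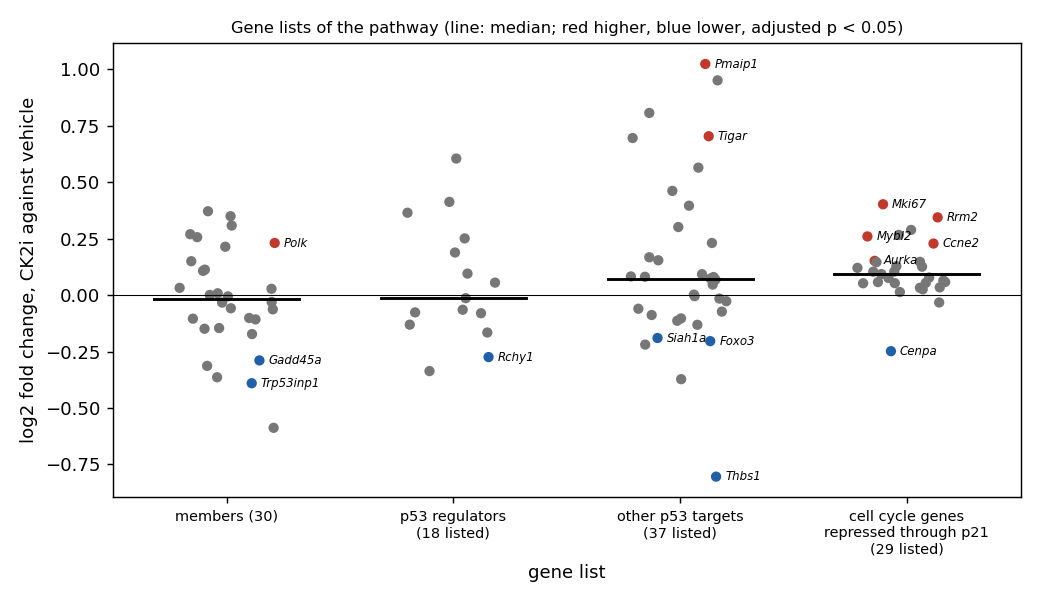
Log2 fold change of CK2i against vehicle for each tested gene of 4 lists, with the median as a line and genes with an adjusted p under 0.05 named in red (higher) or blue (lower). Pmaip1 and Thbs1 lie at the ends of the further targets, at 1.02 and -0.80, and the cell cycle genes lie mostly just above 0, with a median of 0.093.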

How the data were processed

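RNA from marrow progenitors of 5 vehicle and 5 CK2i mouse samples was sequenced from stranded total RNA libraries as paired reads, per the labels' protocols. The deposited table holds estimated counts per gene, whole numbers as deposited, and FPKM values computed by the authors. Bowtie2, RSEM 1.2.31, DESeq2 and the build mm10 are named, per the submitters' processing notes. Their annotation is not given in the sources used here, nor is the strand setting. Reads matching more than 1 gene are divided by RSEM, which leaves close copies uncertain, and exons of 6 members (Cdkn1a, Ddb2, Ei24, Gadd45a, Pml and Rrm2b) overlap a gene on the opposite strand. Symbols and coordinates came from GENCODE M21 (GRCm38, the same assembly as mm10), which matched 37570 of 38887 identifiers; 2 rows with an empty gene cell were left out.

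The main test was edgeR 4.0.16 (R 4.3.3) quasi-likelihood on the counts, TMM scaling, filterByExpr with a minimum count of 10, group as the only term, two-sided, with Benjamini-Hochberg adjustment over 14346 genes. The standard error is the log2 fold change over √F. Intervals are at 95%. The biological coefficient of variation common to all genes was 14.2%, and single members differed from it. In vehicle libraries the standard deviation was 4.42% of the mean for Polk, with 468 to 646 counts over all libraries, and 33.2% for Phlda3. Whether depth or the spread between libraries limited each member was not tested. On simulated data with 14222 genes tested, this test found 38 of 50 true 2-fold rises and 41 of 49 true 2-fold falls. At 1.5-fold it found 30 of 50 rises and 28 of 48 falls, and 9 unchanged genes were called. The simulation drew each gene independently, without the variation that real libraries share across genes. Its counts of true and false calls therefore need not hold for these data. Libraries of the same group all differed by more than sampling noise (chi-square per degree of freedom 10.3 to 67.8). The labels name no batches. Alternatives were DESeq2 1.42.0, limma 3.58.1 on log2(FPKM + 1) or log2(FPKM + 0.1), RLE scaling, no filter, 1 surrogate variable (sva 3.50.0), the replicate number as a block, and libraries left out. The members, lists and tests were chosen with earlier results of these data known. Named genes are all members, Bax, Bbc3, Pmaip1 and up to 6 called genes in each direction of each pathway list. Atm, Atr, Chek1, Chek2, Ep300, Ppp1r13b and the marker genes were added after their values were seen.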

Additional observations from a re-analysis of the deposited data

Results flagged for a closer look

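In 3 of 60 groups of 5 libraries (30 members, 2 groups each), 1 library lay further from the others than Dixon's 95% critical value of 0.710 for the gap over the range allows. Chance gives about 1 in 20 such groups, which is as many. Cdkn1a was at 1.545 CPM in vehicle 5, where the other vehicle libraries held 2.47 to 2.58 CPM. Mdm4 was at 84.5 CPM in vehicle 5, where the others held 76.0 to 78.3 CPM. Rrm2b was at 17.9 CPM in CK2i 4, where the others held 16.8 to 17.0 CPM.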

How the results depend on the processing

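The count of all genes called, 1892 by edgeR, was 1139 with the replicate block, 3168 with DESeq2, 1197 and 1223 with limma on log2(FPKM + 1) and log2(FPKM + 0.1), 73 with 1 surrogate variable (correlation with group 0.635), 175 without CK2i 2 and 5, and 446 to 3198 when 1 library was left out. The count of members called, 3, was 1 with no low-count filter, 0 with the replicate block (8 at an unadjusted p under 0.05), 5 with DESeq2, 1 with limma on log2(FPKM + 0.1), 0 with 1 surrogate variable (3 unadjusted), 0 without CK2i 2 and 5 (5 unadjusted), and 0 to 4 when 1 library was left out. With the replicate block the adjusted p was 0.0520 for Trp53inp1, 0.0740 for Polk and 0.0819 for Gadd45a. The labels do not say whether replicate numbers pair the libraries. Deviations of same-numbered libraries correlated at -0.159 to 0.228. Replicate 1 was the best match in both directions, and not every library correlated best with its own number. With so few libraries these correlations cannot decide whether the numbers pair them. Signs of differences turned with 1 surrogate variable for Trp53 (0.0075), Ppm1d (-0.0038), Aen (0.083), Pml (-0.042) and Phlda3 (0.22, from -0.36 in the main fit). They turned with no filter for Btg2 (-1.4e-05) and Eda2r (-0.0080), and without CK2i 2 and 5 for Pml (-0.0015). When 1 library was left out, differences ran from -0.024 to 0.011 for Trp53, -0.018 to 0.050 for Ppm1d, -0.081 to 0.11 for Btg2, -0.0046 to 0.061 for Ckap2 and -0.14 to 0.084 for Eda2r. None of these 8 genes passed in any of those fits. The cause was not tested. For Eda2r, Perp, Fas and other members with under 100 counts in a library (6 in all), depth also limits the precision.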
